A study of Canis lupus familiaris with 33 samples.

Results

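The insulin-like growth factor (IGF) genes described here were both ligands (IGF1 and IGF2), both receptors (IGF1R and IGF2R) and 3 of the binding proteins (IGFBP3, IGFBP4 and IGFBP7). They were 7 of the 25096 genes in the deposited expression table, of which 12979 carried a gene symbol. They were picked by name, with no expression value in the rule: 6 were found by their symbol, and IGF2R was listed as CI-MPR and was matched by its NCBI gene number. RNA sequencing of ribosome-depleted total RNA compared 29 invasive urothelial carcinomas (iUC) of the canine urinary bladder, named tumors, with 4 samples of normal bladder mucosa, named normals A to D. The tumors were high-grade, untreated, 1 per dog, sampled through a cystoscope and, by histology, almost wholly epithelial. The normals, which the labels call urothelial cells, were mucosa dissected off the bladder wall of dogs euthanized for conditions outside the bladder. No treatment, genotype or time point separated the groups.

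IGF1 and IGF2 are secreted peptides that activate the tyrosine kinase IGF1R, which signals through insulin receptor substrates to phosphoinositide 3-kinase (PI3K) and AKT. IGF2R, the cation-independent mannose 6-phosphate receptor, has no kinase, takes IGF2 to the lysosome and also sorts lysosomal enzymes. The binding proteins hold the ligands in blood and tissue until proteases release them, and in many organs stromal cells are a main source of IGF1.

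Values were log2 normalized abundances minus the median of the same gene over the 33 samples, so they compare samples within a gene, and no level was compared between genes. A gene was called when a limma model over all 24471 genes tested put its Benjamini-Hochberg adjusted p at 0.05 or below and its means differed 2-fold or more. On that rule 10.7% of genes were called higher in tumors and 45.8% lower. The median difference of all genes, tumor minus normal, was -0.84 on the log2 scale. The normals stood apart as libraries: 755 to 1019 genes were at their lowest value in a normal, against 3699 to 8175 in a tumor. All 371 olfactory receptor genes used as a check lay above their lowest value in every normal, against 4.31 to 91.6% of them in a tumor. The labelled tissue also went against its markers in part. The 6 smooth muscle markers measured averaged 5.31 to 7.36 per normal and -1.06 to 4.03 per tumor, and all 6 were called lower in tumors, while 5 of 7 urothelial and epithelial markers, EPCAM and CDH1 among them, were called higher. The 7 fibroblast and matrix markers averaged 1.62 to 2.21 per normal and -1.80 to 1.86 per tumor, with 5 called lower, 1 (PDGFRA) higher and a median difference of -2.71. Both Schwann cell markers were called lower and 4 of 5 mitosis markers higher. These features and the group cannot be told apart, and in bulk tissue fewer cells of a type and less RNA per cell cannot be told apart either.

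All 7 IGF genes passed the filter on low values, with every sample above any shared lowest value. IGF1 fell in tumors and IGF2R rose, and the other 5 were not called. The share called was thus 14.3% in each direction, against the 10.7% and 45.8% of all genes. Among the 18418 genes above their lowest value in at least 17 samples, where all 7 belong, 14.1% were called higher and 30.1% lower, and the median difference was -0.01. The difference was negative for 6 of the 7, with a median of -0.70 beside the -0.84 of all genes. No IGF gene separated the groups fully, whereas 7.63% of all genes had every tumor above every normal and 28.5% had every tumor below.

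**Figure D1:**
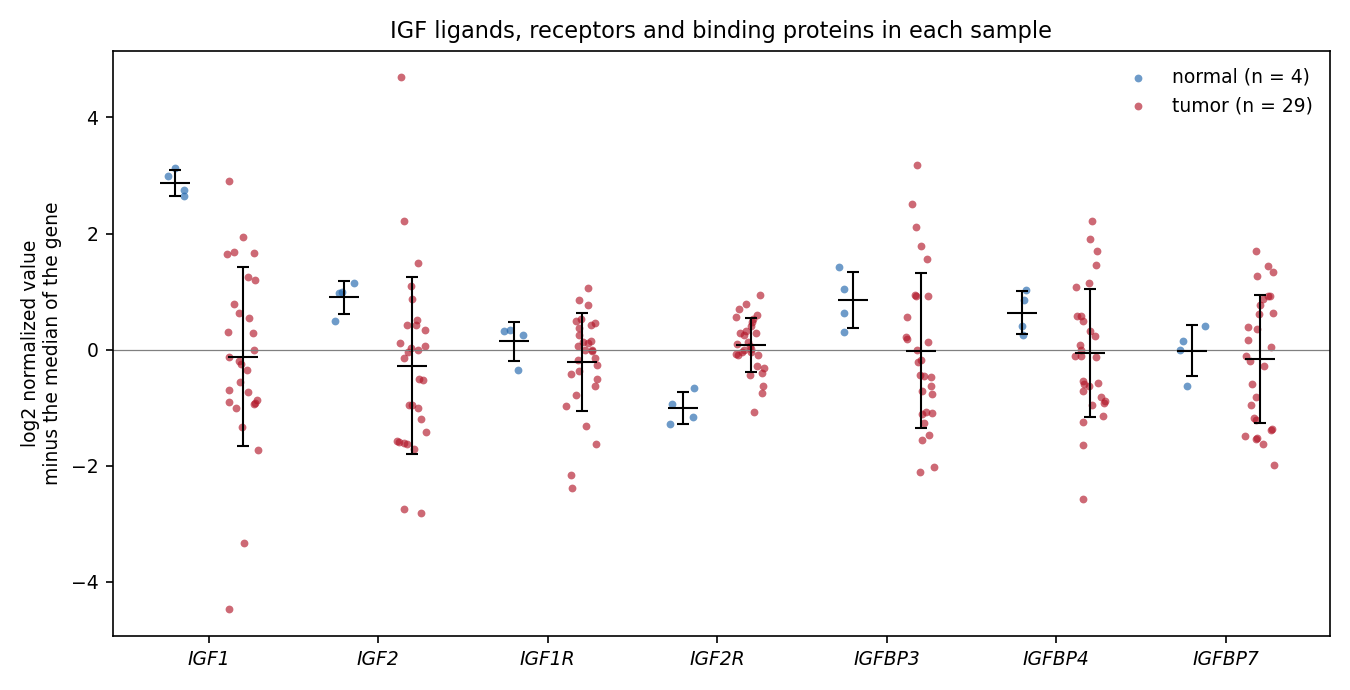
Log2 normalized value minus the median of the gene (vertical axis) for each IGF gene in the 4 normals (blue) and 29 tumors (red). Each point is 1 sample, and bars give the mean ± SD. IGF1 lay between 2.64 and 3.12 in the normals with 28 of 29 tumors below, IGF2R lay between -1.28 and -0.66 with 27 of 29 tumors above, and the other genes overlapped widely.

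Among the ligands, IGF1, the mediator of much of the action of growth hormone, stood at 2.74, 2.64, 3.12 and 2.99 in normals A to D (mean 2.87 ± 0.22, SD, n = 4). In the tumors it ranged from -4.47 to 2.90 with a median of -0.19 (mean -0.12 ± 1.54, SD, n = 29). The normals were tightly grouped at the top, 28 of 29 tumors lay below all of them, and the remaining tumor, 8_734_223, lay within their range. The difference was -2.996 (SE 0.75, 95% interval -4.53 to -1.46, limma adjusted p = 0.000704), or 7.98-fold lower in tumors. Of all genes tested, 24.6% had a still lower difference. An exact two-sided permutation test over the 40920 ways to choose 4 of 33 samples gave p = 0.000831. IGF1 was also among the more variable genes between tumors: its SD exceeded that of 93.7% of genes, and the highest tumor was 165-fold above the lowest. Tumors 10 and 9, at -4.47 and -3.34, formed the lower tail, and tumor 7_733858 at 1.93 and tumor Mi at 1.68 followed the highest one. The fibroblast and matrix markers, 5 of 7 of them called lower (median -2.71), moved in the same direction between the groups, and their part in the difference of IGF1 was not tested.

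IGF2, the ligand best known from fetal growth and an imprinted gene, was at 1.00, 0.49, 0.98 and 1.14 in the normals (mean 0.90 ± 0.28, SD, n = 4). The tumors ran from -2.81 to 4.69 with a median of -0.15 (mean -0.28 ± 1.52, SD, n = 29). Most tumors, 23 of 29, were below all normals, yet 3 were above all of them. The upper end was 1 tumor: tumor 11 reached 4.69, and the next, tumor JE, 2.21. The difference of -1.18 (SE 0.75, 95% interval -2.70 to 0.34) did not pass (limma adjusted p = 0.156, exact permutation p = 0.136). The interval includes both no change and a fall of more than 2-fold. It takes the spread as equal in both groups, as does the permutation test, although the SDs were 0.28 and 1.52. The highest tumor was 181-fold above the lowest.

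Of the receptors, IGF1R, the kinase that carries the signal of both ligands, gave -0.35, 0.34, 0.25 and 0.33 in the normals (mean 0.14 ± 0.33, SD, n = 4). Its tumors lay between -2.39 and 1.06, median -0.01 (mean -0.21 ± 0.84, SD, n = 29). The groups overlapped, with 10 tumors below all normals, 8 above and 11 among them. The difference was -0.35 (SE 0.42, 95% interval -1.21 to 0.50, limma adjusted p = 0.457, exact permutation p = 0.427). Tumors Sn and Za, at -2.39 and -2.16, were the lowest.

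IGF2R was the only IGF gene that rose. Its values were -1.28, -0.66, -1.16 and -0.94 in the normals (mean -1.01 ± 0.27, SD, n = 4) and -1.07 to 0.94 in the tumors, with a median of 0.07 (mean 0.08 ± 0.47, SD, n = 29). In 27 of 29 tumors it exceeded every normal, and the exceptions were tumor Ja at -1.07 and tumor 18 at -0.74. It was the least variable of the 7 between tumors, with an SD above that of 32.9% of genes and a 4.02-fold range. The difference was 1.09 (SE 0.24, 95% interval 0.59 to 1.58, limma adjusted p = 0.000199), or 2.12-fold, with an exact permutation p of 0.000147. This lies close to the 2-fold threshold: the difference was 0.79 in the DESeq-normalized table (adjusted p = 0.00465) and 1.00 without normal A (adjusted p = 0.00238), both under 2-fold. Over all alternatives the adjusted p was 0.000138 to 0.00465.

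None of the 3 binding proteins was called. IGFBP3, the main carrier of IGFs in blood, stood at 0.31, 1.05, 1.43 and 0.64 in the normals (mean 0.85 ± 0.49, SD, n = 4). Its tumors spread from -2.11 to 3.19 with a median of -0.21 (mean -0.02 ± 1.33, SD, n = 29). Of these, 20 were below all normals and 5 above, led by tumor 15 at 3.19, tumor 4 at 2.50 and tumor 12 at 2.11. The difference was -0.87 (SE 0.66, 95% interval -2.21 to 0.47, limma adjusted p = 0.236, exact permutation p = 0.212).

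IGFBP4, a secreted inhibitor of IGF action that the protease PAPPA cleaves, was at 0.25, 0.85, 0.41 and 1.03 in the normals (mean 0.64 ± 0.37, SD, n = 4). The tumors lay between -2.57 and 2.21, median -0.12 (mean -0.06 ± 1.11, SD, n = 29). Again most tumors, 19, were below all normals and 6 were above, with tumor 10 the lowest, as for IGF1. The difference was -0.70 (SE 0.55, 95% interval -1.81 to 0.41, limma adjusted p = 0.252, exact permutation p = 0.223).

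IGFBP7, which binds IGFs weakly and is deposited around blood vessels, gave 0.15, -0.62, 0.00 and 0.41 in the normals (mean -0.02 ± 0.44, SD, n = 4). It ranged in tumors from -1.99 to 1.70 with a median of -0.11 (mean -0.17 ± 1.10, SD, n = 29). The tumors were spread on both sides of the normals, 11 below and 10 above all of them. The difference was -0.15 (SE 0.55, 95% interval -1.26 to 0.96, limma adjusted p = 0.814, exact permutation p = 0.794). It was -0.35 without normal B and -0.01 without normal D, and was called in neither case.

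**Figure D2:**
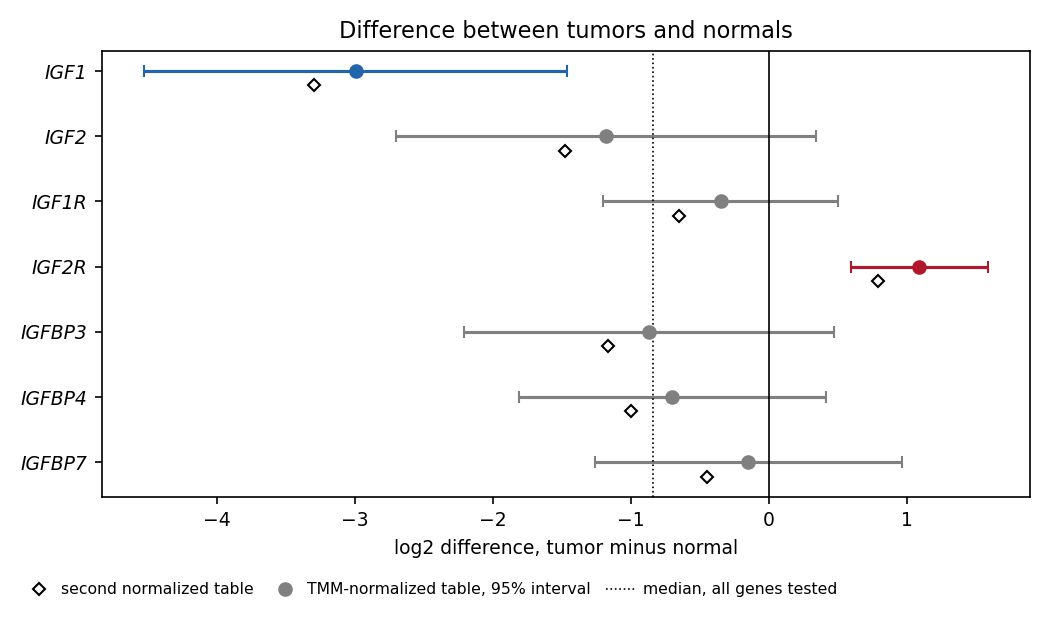
Log2 difference, tumor minus normal (horizontal axis), for each IGF gene, with its 95% interval from limma on the TMM-normalized table (circles) and the value in the second table, which the authors normalized by DESeq (diamonds). IGF1 (blue, -2.996) was called lower and IGF2R (red, 1.09) higher, and the grey intervals of the other 5 genes include 0. The dotted line is the median of all genes, -0.84.

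Differences between members within a sample do not depend on how the whole sample was scaled, and they were compared between groups after the values above had been seen. Of the 21 pairs, 8 differed between tumors and normals (exact permutation test, Benjamini-Hochberg over the pairs). Each of the 8 holds IGF1 or IGF2R, the genes already called, so they restate those calls and are not 8 separate results. The ligand IGF1 minus its opposite mover IGF2R averaged 3.88 ± 0.42 in the normals (SD, n = 4) and -0.20 ± 1.63 in the tumors (SD, n = 29), a difference of -4.08 with 28 tumors below all normals (adjusted p = 0.00103, exact permutation). IGF1 fell relative to the binding proteins IGFBP7 (-2.85, adjusted p = 0.00103, exact permutation) and IGFBP4 (-2.30, adjusted p = 0.00325, exact permutation), each with 28 tumors below all normals. These 3 pairs passed without any 1 of the normals. IGF1R fell relative to IGF2R by 1.44 on the log2 scale (-1.44, adjusted p = 0.0127, exact permutation), with 27 tumors below all normals, and passed in 3 of the 4 fits that left out a normal. The other 4 pairs, IGF1 with IGF1R, IGF2 with IGF2R, and IGF2R with IGFBP3 and with IGFBP4, had adjusted p-values of 0.0283 to 0.0311 by exact permutation and passed in none of those 4 fits. IGF1 minus IGFBP3 differed by -2.12 and IGF1 minus IGF2 by -1.81 without passing (adjusted p = 0.0828 and 0.127, exact permutation).

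Across the tumors, IGF1, IGFBP4 and IGFBP7 went up and down together. For IGF1 with IGFBP4, Pearson's r was 0.643 (permutation p = 0.00031, adjusted p = 0.00378) and rho, the rank correlation of Spearman, 0.544 (adjusted p = 0.0200). For IGFBP4 with IGFBP7 r was 0.617 (permutation p = 0.00036, adjusted p = 0.00378) and rho 0.640 (adjusted p = 0.00462), and for IGF1 with IGFBP7 r was 0.580 (permutation p = 0.00068, adjusted p = 0.00476) and rho 0.558 (adjusted p = 0.0200). These were the 3 of 21 pairs that passed by r. Leaving out 2 tumors each time, those with the most extreme values of the first gene, gave r of 0.543, 0.593 and 0.575, so none rested on those tumors.

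The other 18 pairs had r between -0.30 and 0.27. IGF2 and IGF1R, ligand and receptor, had an r of -0.302 (permutation adjusted p = 0.461), but a rho of -0.483 (permutation p = 0.00881, adjusted p = 0.0463), so the rank relation passed and the linear one did not. The receptors IGF1R and IGF2R had an r of 0.27, and IGF1 and IGF2 0.23, neither past the correction. IGFBP3 was not correlated past the correction with any other IGF gene.

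**Figure D3:**
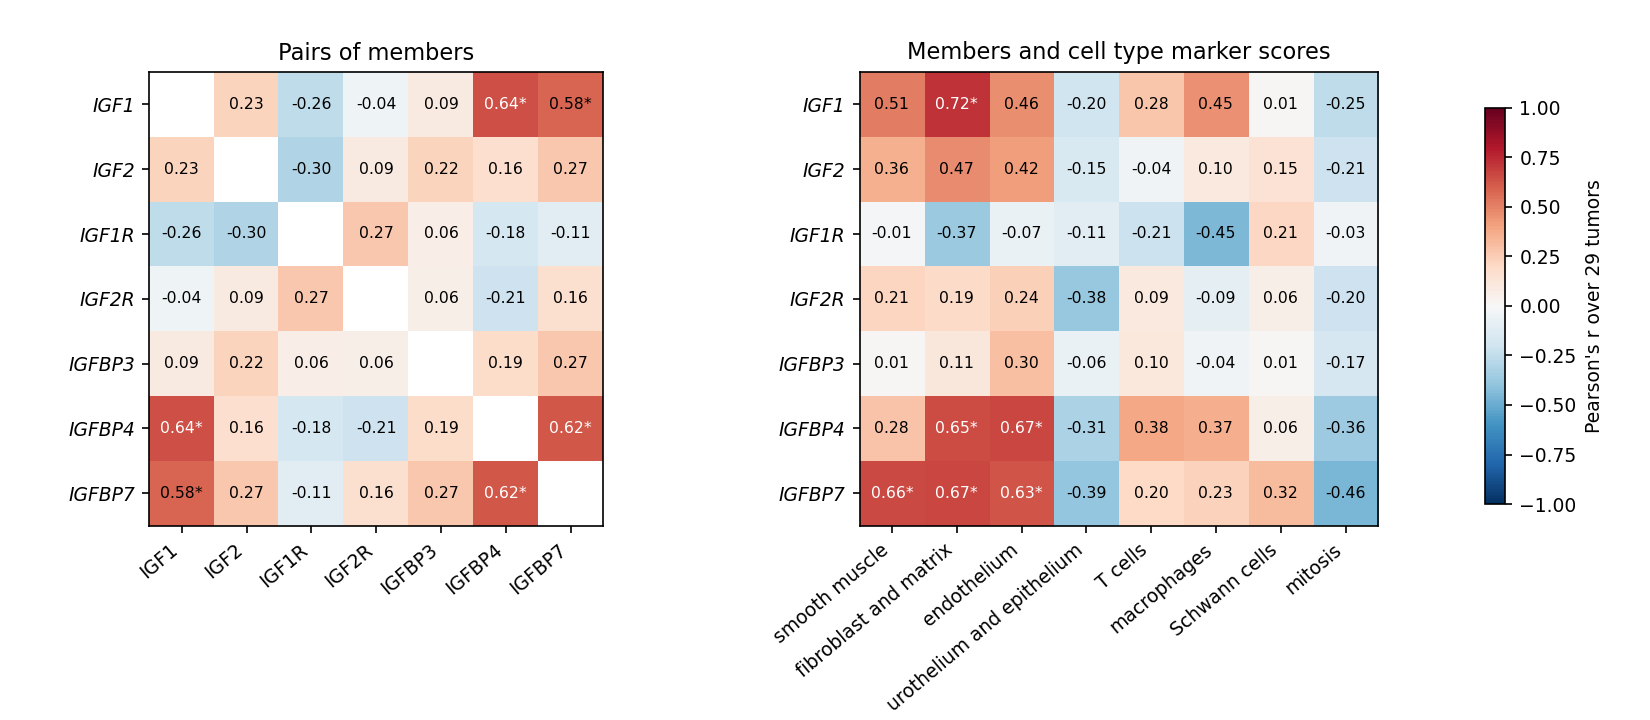
Pearson's r over the 29 tumors between pairs of IGF genes (left) and between IGF genes and cell type marker scores (right), printed in each cell and coloured from blue (-1) to red (1); asterisks mark an adjusted permutation p of at most 0.05. IGF1, IGFBP4 and IGFBP7 form the only correlated group (0.58 to 0.64), and the same 3 genes hold all 6 marks on the right.

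Each IGF gene was then set against 8 marker scores, each the mean z value of a list of cell type markers over the tumors, which made 56 relations, of which 6 passed by r. IGF1 followed the fibroblast and matrix score (collagens, DCN, LUM and others) with r = 0.721 (permutation p = 1e-05, the smallest the 100000 resamples can give, adjusted p = 0.00056) and rho = 0.694 (permutation adjusted p = 0.0014), and r was 0.685 without tumors Mi and Po. By rank, IGF1 also followed smooth muscle (rho = 0.545, permutation p = 0.00241, adjusted p = 0.0169) and endothelium (rho = 0.484, permutation p = 0.0082, adjusted p = 0.0417), where r was 0.509 and 0.465 (permutation adjusted p = 0.0505 and 0.0607). They were 0.458 without tumors 7 and 7_733858 and 0.516 without tumors 18 and JE (permutation adjusted p = 0.0809 and 0.0353). IGFBP4 followed endothelium most closely (r = 0.671, permutation p = 0.00011, adjusted p = 0.00146; rho = 0.776, adjusted p = 0.00056; r = 0.748 without tumors 18 and JE). It also followed fibroblast and matrix markers (r = 0.655, permutation p = 0.00012, adjusted p = 0.00146; rho = 0.629; r = 0.570 without tumors Mi and Po). Its r with smooth muscle was 0.283 (permutation adjusted p = 0.315), and 0.548 without tumors 7 and 7_733858 (adjusted p = 0.0207).

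IGFBP7 was correlated with 3 scores. These were fibroblast and matrix (r = 0.668, permutation p = 0.00013, adjusted p = 0.00146, rho = 0.657), smooth muscle (r = 0.657, permutation p = 5e-05, adjusted p = 0.0014, rho = 0.657) and endothelium (r = 0.631, permutation p = 0.00025, adjusted p = 0.00233, rho = 0.635). Tumors 7 and 7_733858 had by far the highest smooth muscle scores, and without them that r was 0.595. By rank, IGFBP7 was also lower where urothelial and epithelial markers were higher (rho = -0.497, permutation p = 0.00655, adjusted p = 0.0367). With the mitosis score its r was -0.456 (permutation adjusted p = 0.0607), and -0.535 with the olfactory receptor share regressed out (adjusted p = 0.0125).

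**Figure D4:**
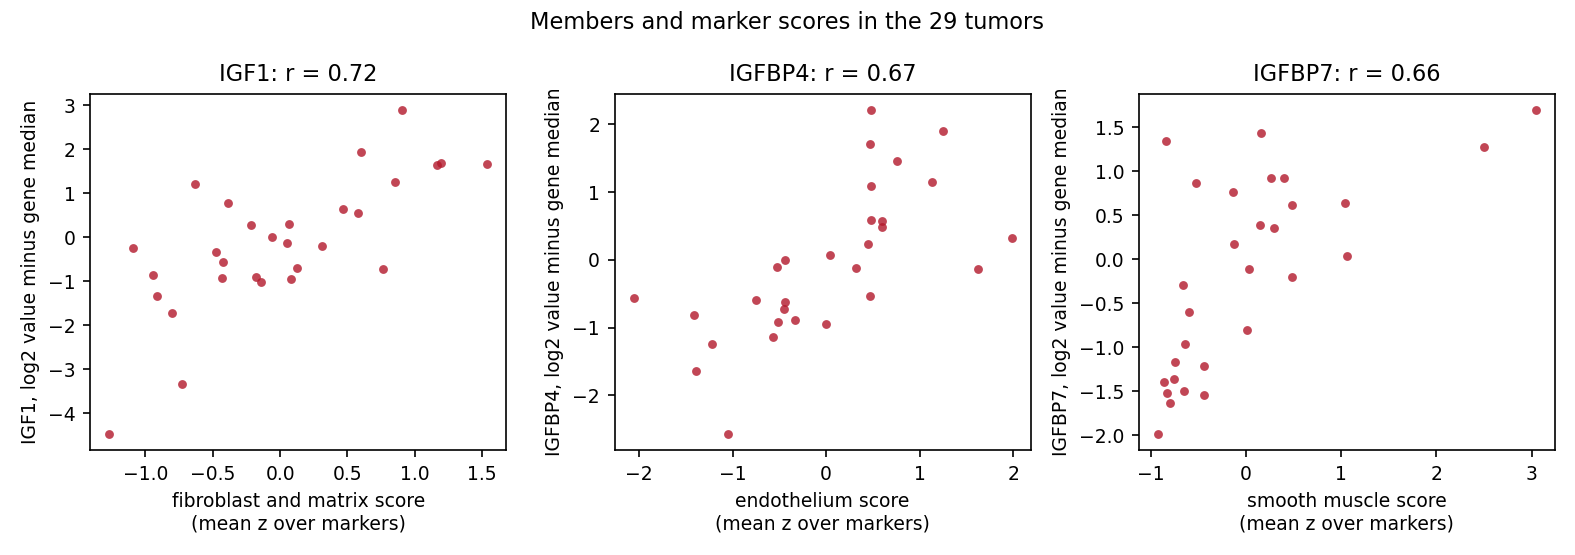
Log2 value minus the median of the gene (vertical axes) against marker scores (horizontal axes, mean z value of the markers) in the 29 tumors, 1 point per tumor: IGF1 and the fibroblast and matrix score (r = 0.72), IGFBP4 and the endothelium score (r = 0.67), and IGFBP7 and the smooth muscle score (r = 0.66). All 3 rise from left to right, and in the right panel tumors 7 and 7_733858 stand apart on the horizontal axis.

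With the fibroblast and matrix score regressed out of both genes, none of the 21 pairs of IGF genes passed. The r of IGF1 with IGFBP4 was then 0.326, that of IGFBP4 with IGFBP7 0.319 and that of IGF1 with IGFBP7 0.190 (permutation adjusted p = 0.475, 0.475 and 0.633). With the smooth muscle score regressed out they were 0.604, 0.596 and 0.378, and the last no longer passed (permutation adjusted p = 0.305).

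IGF2, IGF1R, IGF2R and IGFBP3 followed no marker score by r. By rank, IGF2 was correlated with smooth muscle (rho = 0.561, permutation p = 0.00205, adjusted p = 0.0164) and with fibroblast and matrix markers (rho = 0.542, permutation p = 0.00319, adjusted p = 0.0198), where r was 0.359 and 0.471. The r of IGF2 with smooth muscle became 0.598 without tumors 7 and 7_733858 (permutation adjusted p = 0.0119), and that with fibroblast and matrix markers 0.437 without tumors Mi and Po (adjusted p = 0.0995). IGF1R and the macrophage score had an r of -0.448 (permutation adjusted p = 0.0684) that was -0.0662 without tumors Sn and Za, so that value rested on those 2 tumors. The share of olfactory receptor genes above their lowest value was not correlated past the correction with any IGF gene. The largest r was -0.309, for IGFBP7 (permutation adjusted p of at least 0.741 for all 7).

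The genes nearest to each IGF gene in their pattern over the tumors, among 12801 named genes, are given as a description. IGF1 had the closest companions: PEG3, an imprinted zinc-finger gene (r = 0.914), SCUBE2, a secreted protein (r = 0.905), and LAMA2, a laminin chain of the basement membrane (r = 0.902). IGFBP4 was nearest to DKK3, a secreted glycoprotein (r = 0.824), then ARHGAP20 (0.782) and ZSCAN18 (0.771), and farthest from SRXN1, sulfiredoxin, an antioxidant enzyme (-0.822). IGFBP7 was nearest to CALD1, the actin-binding caldesmon (0.80), then TTLL7 (0.798) and DPYSL3 (0.787), and farthest from the tight junction gene CLDN7 (-0.759), which is in the epithelial marker list. The nearest genes of IGF1, IGFBP4 and IGFBP7 all had lower means in tumors, with differences of -4.13 to -1.84. The median of all genes was -0.84, and 45.8% of them were called lower. IGFBP4 and IGFBP7 themselves were not called.

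The remaining 4 had looser companions. IGF2R was nearest to KMT2C, a histone methyltransferase (r = 0.769), UBR4, a ubiquitin ligase (0.765), and TULP4 (0.760). IGF2 was nearest to DUSP3, a phosphatase (0.730), MED1, a Mediator subunit (0.705), and PCGF2, a Polycomb protein (0.704). IGFBP3 led with BICRAL (0.664), TTC9B (0.660, above its lowest value in only 10 samples) and PRKCE (0.655), and IGF1R with WDTC1 (0.619), SCARB1 (0.618) and HEATR3 (0.616). The farthest genes were PRPF6 for IGF1 (-0.715), RARS1 for IGF2 (-0.702), DCLRE1B for IGF1R (-0.726), PRR15L for IGF2R (-0.749) and ABCD3 for IGFBP3 (-0.625).

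Genes next to each IGF gene on its chromosome are given by their median. The r over 29 tumors, taken as the median over 10 neighbours (7 for IGFBP3), was between -0.0992, for IGF1, and 0.178, for IGF2, beside medians of -0.0248 to 0.0158 over all genes. IGFBP3 and its neighbour IGFBP1 had an r of 0.131 (permutation p = 0.499).

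Around the 7 genes, 38 other genes of the pathway were considered, and 29 were tested. Of these, 4 were called higher in tumors (13.8%), 6 lower (20.7%) and 19 neither, beside 10.7% and 45.8% of all genes. The 6 lower were GHR, IGF2BP1, IRS1, FOXO1, PAPPA and PIK3R1, and the 4 higher IGFBP1, STC2, PIK3CB and PDPK1. IGFBP1 is named as a binding protein, GHR and IGF2BP1 because they were called with at least a 4-fold change, and the others were named after their values were seen. IGFBP2, IGFBP5, IGFBP6, HTRA1, ADAM12, IRS4, GRB14, PIK3CA and IGF2BP2 were not analysed here.

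IGFBP1, a binding protein of liver and decidua that insulin represses, was at -4.82, -4.86, -5.40 and -4.31 in the normals. Its tumors ran from -4.93 to 4.69 with a median of 0.55, and 24 of 29 were above every normal. The difference was 5.03 (SE 1.65, limma adjusted p = 0.00732), or 32.8-fold, and its SD between tumors of 3.38 exceeded that of 99.9% of genes. It thus rose in tumors, unlike the 3 binding proteins above, but in 5 tumors it lay within the range of the normals. IGFALS, the acid-labile subunit of the circulating IGF complex, differed by 0.38 (SE 0.47, limma adjusted p = 0.468).

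GHR, the growth hormone receptor, which drives IGF1 transcription in liver, was at 1.89, 2.34, 2.33 and 2.63 in the normals and -2.76 to 1.19 in the tumors, with a median of -0.05. All 29 tumors lay below every normal, as was so for 28.5% of all genes. It fell by 2.76 on the log2 scale (-2.76, SE 0.54, limma adjusted p = 3.15e-05), 6.76-fold, with an exact permutation p of 2.44e-05, the smallest this test can give. Over the tumors GHR and IGF1 had an r of 0.116 (permutation adjusted p = 0.791), which was 0.506 without tumors 10 and 9, the lowest for IGF1 (adjusted p = 0.0480). IGF2BP1, an RNA-binding protein named for IGF2 mRNA, stood at 3.53, 3.83, 3.63 and 4.57 in the normals. It ranged from -1.62 to 4.82 in the tumors (median -0.48), was at its lowest value in 8 of them and below all normals in 26. It fell by 3.66 on the log2 scale (limma adjusted p = 0.00132), 12.6-fold, and 17.3% of all genes had a still lower difference.

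**Figure D5:**
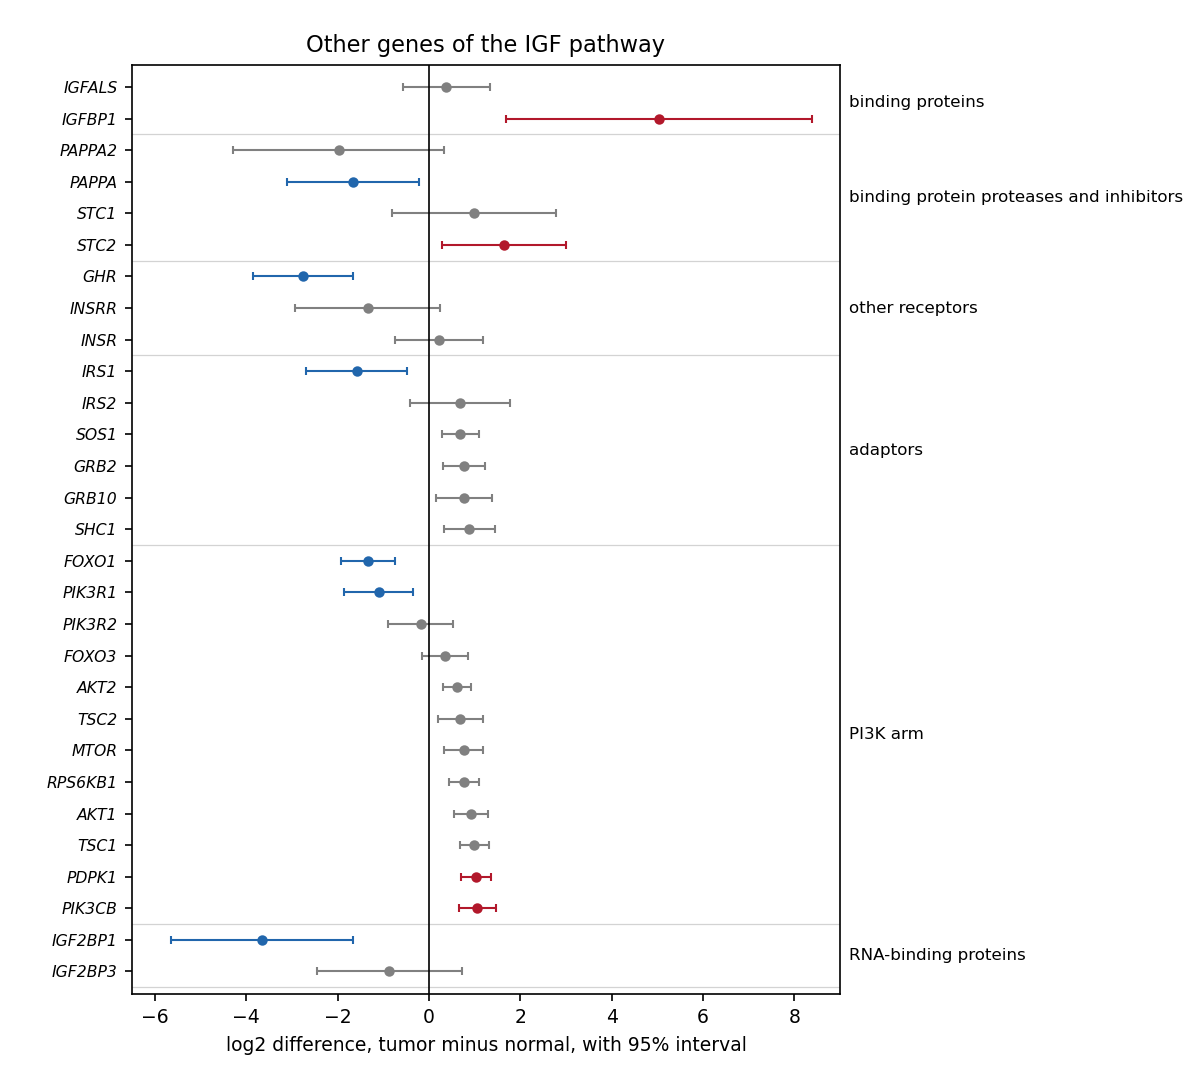
Log2 difference, tumor minus normal (horizontal axis), with 95% interval from limma for the 29 other pathway genes tested, grouped by role, with called genes in red (4 higher) and blue (6 lower) and the others in grey. IGFBP1 lay farthest to the right (5.03) and IGF2BP1 farthest to the left (-3.66), while most adaptors and PI3K genes lay between 0.6 and 1.1.

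Among the adaptors, IRS1, a main substrate of IGF1R, fell by 1.58 on the log2 scale (limma adjusted p = 0.0102), and the other 5 were not called. With no fold threshold 14 of the 29 pathway genes were higher and 6 lower, beside 22.9% and 48.1% of all genes. Of the 14, 10 were under 2-fold, with differences of 0.61 to 0.99, beside 12.2% of all genes that were higher and 2.35% that were lower on those terms. Of these 10, AKT1, TSC1, MTOR and RPS6KB1 passed the adjusted p in the DESeq-normalized table. The adaptors SOS1, GRB2, GRB10 and SHC1 (0.69 to 0.88) and AKT2 and TSC2 did not pass there. In the PI3K arm the regulatory subunit PIK3R1 (-1.10) and the transcription factor FOXO1 (-1.34) fell, and the catalytic subunit PIK3CB (1.06) and the AKT kinase PDPK1 (1.03) rose just past 2-fold. STC2, an inhibitor of PAPPA, rose by 1.64 and PAPPA itself fell by 1.66 on the log2 scale (limma adjusted p = 0.0277 and 0.0355). Only 1 of the 4 higher calls, IGFBP1, was also made in the DESeq-normalized table, without normal A and without normal D, and STC2 was not called without normal C either. PAPPA was called only without normal A among the fits that left out a normal, and was not called with a sample weight per group.

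Finally, 13 pairs of an IGF gene and a known partner were compared over the tumors, chosen after the fits had been seen. IGFBP4 and its protease PAPPA were the 1 pair that passed, with r = 0.577 (permutation p = 0.00112, adjusted p = 0.0146) and rho = 0.621 (adjusted p = 0.0052). The r was 0.636 without the 2 tumors most extreme for IGFBP4 and 0.168 with the fibroblast and matrix score regressed out. IGF1R had an r of -0.000494 with INSR, the insulin receptor with which it can pair, and IGF2 one of 0.326 with IGF2BP3, neither past the correction.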

How the data were processed

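RNA from 29 canine iUC, 1 per dog, and 4 normal bladder mucosa samples was sequenced as paired 150-base reads in 1 batch. Whether each normal came from its own dog is not given in the sources used here, and if not, p-values measure a spread that is partly technical. Per the labels and the study's methods, reads were aligned to CanFam 3.1, and the authors normalized them in Strand NGS 3.1 by TMM and, separately, by DESeq. The deposited values are log2 normalized abundances with the median of each gene over 33 samples set to 0. They are not counts, so the depth of each sample is unknown here and no counting interval could be given. The incomplete last line of each table (1 each) was left out.

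The TMM table was the main one. Genes above any shared lowest value in at least 4 samples (24471 of 25096) were fitted with limma 3.58.1 (lmFit, eBayes with trend) in R 4.3.3, with no covariate and Benjamini-Hochberg adjustment over all of them. Single values were also tested by exact two-sided permutation over samples, and correlations over tumors by two-sided permutation with 100000 resamples (Python 3.11.15, scipy 1.17.1), adjusted within each family. The limma fit and the permutation test of correlations were tested on simulated data, and the exact permutation test was not. The data simulated for limma had the same spread in both groups. The main limma fit and the exact permutation test take the spread of a gene as equal in both groups. Each IGF gene had a smaller SD in the normals than in the tumors. A count model was not used because the tables hold no counts. Alternatives were the other table of the authors, no trend, a sample weight per group, other filters, sample centring, no fold threshold, each normal left out, rank correlation and regression on marker scores.

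Genes named by rule were the 7 IGF genes, pathway genes called with at least a 4-fold change or coding for binding proteins, and for each IGF gene the 3 named genes with the highest r and the 1 with the lowest. The other tested pathway genes given by name were chosen after their values were seen. Some items of the pathway list are not reported here. The members and lists were chosen with earlier results of these data known. Neighbours on a chromosome were taken from RefSeq gene order. No sequence tables were used, so no sequences are shown. No 2 samples were near-identical over genes (highest correlation 0.942 for 2 normals and 0.574 for 2 tumors).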

Additional observations from a re-analysis of the deposited data

Results flagged for a closer look

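Among 11 genes examined (the 7 IGF genes and the 4 pathway genes named by rule), IGF1R had 1 normal far from the other 3: normal A stood at -0.350, while normals B to D lay between 0.252 and 0.344. The gap was 0.867 of the range of the 4 normals, above the critical value of Dixon's test for 4 samples. Chance gives about 1 such gap in 20 groups. Without normal A, IGF1R was still not called.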

How the results depend on the processing

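IGF1 was called lower under each alternative run, with differences of -3.29 to -2.91. IGF2R was higher under each, but under 2-fold in the DESeq-normalized table (0.79) and without normal A; leaving out each normal gave 0.996 to 1.20. The members called higher were accordingly 0 in the DESeq-normalized table, and 0 to 1 with each normal left out. The median of all genes was -0.84 in the TMM table, -1.11 in the DESeq table and -0.01 among genes above the lowest value in at least 17 samples, so that IGF1 differed by -2.16 relative to the first and -2.99 relative to the last, and IGF2R by 1.93 and 1.10. Other pathway genes called higher numbered 4, but 1 in the DESeq-normalized table, 14 with no fold threshold (of 29, beside 22.9% of all genes), and 1 to 5 with each normal left out. Pairs of members whose difference changed numbered 8 in both tables, but 3 to 4 with each normal left out. The equal number in both tables is no check, because a scaling of the whole sample cancels in a within-sample difference. Correlated member pairs numbered 3, and 0 with the fibroblast and matrix score regressed out; marker correlations numbered 6, 11 by Spearman's rho, 9 with the 2 most extreme tumors left out and 7 with the olfactory receptor share regressed out; partner pairs numbered 1, 0 with the matrix score regressed out and 2 with the 2 most extreme tumors left out. The leave-out fits rest on 3 normals. From the TMM to the DESeq table, the differences of all 7 IGF genes moved down by the same amount. IGF1 went from -2.996 to -3.29, IGF2R from 1.09 to 0.79 and IGFBP7 from -0.15 to -0.45. What caused these and the other changes was not tested. None of the tumor minus normal differences of the 7 IGF genes and no correlation past the correction changed sign. Correlations that did not pass did in part (10 of 18 member pairs, 10 of 50 with marker scores and 4 of 12 partner pairs): with the matrix score regressed out, IGF1 with IGF2 went to -0.185 and IGF1 with GHR to -0.224. No paired analysis was possible because the normals and tumors share no replicate numbers. With 4 normals and no depths in the tables, the intervals of the 5 IGF genes not called include 0 and reach past 2-fold lower. These intervals take the spread as equal in both groups, although each IGF gene varied less among the normals.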
